A study of Mus musculus with 11 samples.

Results

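The 37 genes described here encode proteins of fatty acid oxidation. They were chosen by name from the 54532 genes of the count table and all 37 were in the table and passed the filter on low counts. By their known location, 18 act in mitochondria, 13 in or on peroxisomes, and 6 in both, at the cell surface or in the control of malonyl-CoA. The 11 libraries hold RNA of entire C57BL/6 mouse hearts, with 26 weeks as the labelled time. HFD+STZ+AAV METTL3 hearts gave 4 libraries and are called METTL3 hearts, HFD+STZ hearts gave 4, and Chow hearts gave 3. The labels leave HFD, STZ and AAV as letters, which commonly mean high-fat diet, streptozotocin (a drug that kills pancreatic beta cells) and adeno-associated virus. METTL3 is the enzyme that writes N6-methyladenosine into messenger RNA; the series description calls the treatment overexpression, and its promoter and dose are not given. The labels do not say whether HFD+STZ mice received a control virus, so effects of virus and METTL3 cannot be told apart. The questions were which of these genes differ between hearts of the HFD+STZ and Chow groups and whether METTL3 hearts differ from either.

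Fatty acids are the main fuel of the adult heart. Long-chain fatty acids enter mitochondria as carnitine esters, made by carnitine palmitoyltransferase 1, the step that malonyl-CoA inhibits. Inside, each round of beta-oxidation passes through an acyl-CoA dehydrogenase chosen by chain length, a hydratase, a second dehydrogenase and a thiolase. The electrons taken by the acyl-CoA dehydrogenase leave through electron transfer flavoprotein. Double bonds of unsaturated fatty acids need auxiliary isomerases and reductases. Peroxisomes shorten very long, branched and dicarboxylic fatty acids with separate enzymes and hand shortened chains to mitochondria. Many of these genes are known targets of PPAR-alpha, a nuclear receptor activated by fatty acids that binds a direct repeat of AGGTCA.

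Of the members, 30 had a RefSeq promoter window in the GRCm38.p6 table, running from 250 bases before to 50 bases after the start, in 31 windows. Both strands were searched. The direct repeat AGGTCANAGGTCA was in 0 of the 31 windows, against 0.0396% of 32851 windows of the same length. At so low a share the 0 says nothing about the members. The single AGGTCA, which also lies within that repeat, was in 6 windows (Acacb, Acadm, Acadvl, Cpt1a, Echs1 and Phyh), against 16.3% of all windows. The NRF1 motif GCGCANGCGC, named for a factor known for nuclear genes of mitochondria, was in 5 windows (Abcd3, Etfb, Etfdh, Hsdl2 and Slc22a5), against 4.60% of all windows. A match is a description of the letters only. The 250 bases before the start are shown for members with a match at the entry of fatty acids, at the first step of beta-oxidation and in peroxisomes, with the matches in capitals.
Cpt1a (chr19:3323051-3323300, plus strand): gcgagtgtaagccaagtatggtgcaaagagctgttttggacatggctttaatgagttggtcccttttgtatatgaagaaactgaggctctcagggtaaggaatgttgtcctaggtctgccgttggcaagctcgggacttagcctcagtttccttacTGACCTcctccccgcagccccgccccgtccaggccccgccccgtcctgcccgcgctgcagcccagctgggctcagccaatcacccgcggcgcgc
Acadvl (chr11:70015429-70015678, minus strand): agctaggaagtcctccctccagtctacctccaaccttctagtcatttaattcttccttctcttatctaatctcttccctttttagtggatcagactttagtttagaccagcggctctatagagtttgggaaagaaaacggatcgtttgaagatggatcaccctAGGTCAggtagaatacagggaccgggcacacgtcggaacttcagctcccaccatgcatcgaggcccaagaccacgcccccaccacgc
Acadm (chr3:153944644-153944893, minus strand): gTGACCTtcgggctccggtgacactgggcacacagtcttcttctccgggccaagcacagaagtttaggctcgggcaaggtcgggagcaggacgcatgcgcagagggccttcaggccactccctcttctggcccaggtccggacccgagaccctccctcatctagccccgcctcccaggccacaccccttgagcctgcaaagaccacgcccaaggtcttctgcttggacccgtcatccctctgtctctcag
Slc22a5 (chr11:53891704-53891953, minus strand): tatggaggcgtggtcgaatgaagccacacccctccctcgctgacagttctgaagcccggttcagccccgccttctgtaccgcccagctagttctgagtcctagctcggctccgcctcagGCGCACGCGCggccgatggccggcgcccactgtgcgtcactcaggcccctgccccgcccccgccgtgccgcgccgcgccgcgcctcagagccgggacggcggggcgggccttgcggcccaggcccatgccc
Abcd3 (chr3:121815303-121815552, minus strand): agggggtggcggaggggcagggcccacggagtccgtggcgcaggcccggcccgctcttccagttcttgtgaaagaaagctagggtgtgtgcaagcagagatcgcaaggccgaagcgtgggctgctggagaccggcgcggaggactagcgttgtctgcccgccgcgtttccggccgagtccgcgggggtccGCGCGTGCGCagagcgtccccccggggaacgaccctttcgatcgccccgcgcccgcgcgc
Hsdl2 (chr4:59581313-59581562, plus strand): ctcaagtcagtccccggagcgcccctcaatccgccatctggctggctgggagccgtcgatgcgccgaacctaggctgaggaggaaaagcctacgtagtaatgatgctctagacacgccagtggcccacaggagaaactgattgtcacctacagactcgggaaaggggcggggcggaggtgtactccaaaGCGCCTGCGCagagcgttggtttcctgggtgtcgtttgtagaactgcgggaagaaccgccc
Cpt1a, Acadvl and Acadm hold AGGTCA or its reverse complement, and Slc22a5, Abcd3 and Hsdl2 hold the NRF1 motif. Hadha and Hadhb, the subunits of the trifunctional protein, start 86 bases apart on opposite strands.

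Libraries held 13900531 to 16952639 counts in total, 7651470 to 12994921 of them on nuclear genes. The mitochondrial genome took 41.6 ± 3.40% of counts in METTL3 libraries (SD, n = 4), 30.3 ± 1.73% of HFD+STZ libraries (n = 4) and 20.6 ± 9.90% of Chow libraries (n = 3). Mettl3 itself had 8.39 ± 2.19 CPM (counts scaled to library size) in METTL3 hearts (SD, n = 4), against 6.35 ± 1.58 CPM in HFD+STZ hearts (n = 4). The log2 fold change was 0.40, with an edgeR adjusted p of 0.759. A rise was not called, in a comparison that called 0% of all genes, and the reason was not tested. Directions for METTL3 hearts are therefore those of the libraries labelled METTL3. Chow replicate 3 stood apart, with 9.28% mitochondrial counts and 15734 genes with a count, against 20769 and 20672 in the other Chow libraries. HFD+STZ replicate 1 was the lowest HFD+STZ library in 35 of the 37 members, and in 32.7% of all genes tested. It is also the only HFD+STZ library whose sample code lies in an upper range (78 to 98, against 25 to 33). METTL3 replicate 4 is the only METTL3 library there. The ranges were set here, and what the codes mark is not given. The Chow codes were 94, 96 and 98, HFD+STZ replicate 1 had 83 and METTL3 replicate 4 had 78. The summed level of 7 cardiomyocyte markers overlapped between groups, at 31084 to 36406 CPM in METTL3 hearts, 29595 to 41853 CPM in HFD+STZ hearts and 35437 to 40348 CPM in Chow hearts. The 5 macrophage markers summed to 50.9 to 98.5 CPM in METTL3 hearts, 98.6 to 185 CPM in HFD+STZ hearts and 164 to 307 CPM in Chow hearts, and their part in the results was not tested. The 5 fibroblast markers summed to 996 to 1500 CPM in METTL3 hearts, 1569 CPM in HFD+STZ replicate 1 against 716 to 871 CPM in HFD+STZ replicates 2 to 4, and 1054 to 1299 CPM in Chow hearts. The 4 genes listed as brown adipocyte markers were Ucp1, Cidea, Elovl3 and Ppargc1b, of which 2 passed the filter on low counts. They summed to 23.1 to 34.3 CPM in METTL3 hearts and 25.3 to 31.7 CPM in Chow hearts. Their sum was 22.9 CPM in HFD+STZ replicate 1, against 41.2 to 48.7 CPM in HFD+STZ replicates 2 to 4. Which cells gave these counts was not tested, so the sum is not a measure of brown fat. The cardiomyocyte sum was also lowest in HFD+STZ replicate 1. The part of these markers in the results was not tested. The 5 white adipocyte markers summed to at most 5.08 CPM in any library. In whole hearts, fewer cells of a type and less RNA per cell cannot be told apart.

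Between HFD+STZ and Chow hearts the dienoyl-CoA isomerase gene Ech1 rose 2.15-fold, and most other members had higher levels in HFD+STZ hearts without passing the test. The log2 fold change was above 0 for 33 of 37 members, with a median of 0.78, against a median of -0.02 over all 14862 genes tested. The median was 0.86 over the 18 mitochondrial members and 0.46 over the 13 peroxisomal members. Ech1 alone rose past an adjusted p of 0.05 in edgeR's quasi-likelihood test with Benjamini-Hochberg adjustment, and 0 members fell, where 0.135% and 0.0336% of all genes were called higher and lower. At an unadjusted p under 0.05 there were 25 members, 24 of them above 0, against 12.1% of all genes. Levels of 19 members did not overlap between the groups and were higher in HFD+STZ hearts, against 5.52% of all genes, and 0 members did so in the lower direction, against 4.88%. Without Chow replicate 3 and HFD+STZ replicate 1, a choice made after seeing the data, 20 members (12 mitochondrial, 4 peroxisomal and 4 other) rose and 0 fell, where 2.21% and 1.07% of all genes were called. With the range of sample codes as a covariate 0 members were called, where 0.00673% of all genes (1 gene) were called higher, so the count of 0 says nothing about the members. The median log2 fold change in that fit was 0.46, and since all Chow libraries lie in the upper range, code range and group are largely confounded. Within the upper range, HFD+STZ replicate 1 alone lay a median log2 difference of 0.31 above the Chow mean over the members, 0.42 over mitochondrial and 0.07 over peroxisomal ones, with no test, against 0.04 over all genes.

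**Figure D1:**
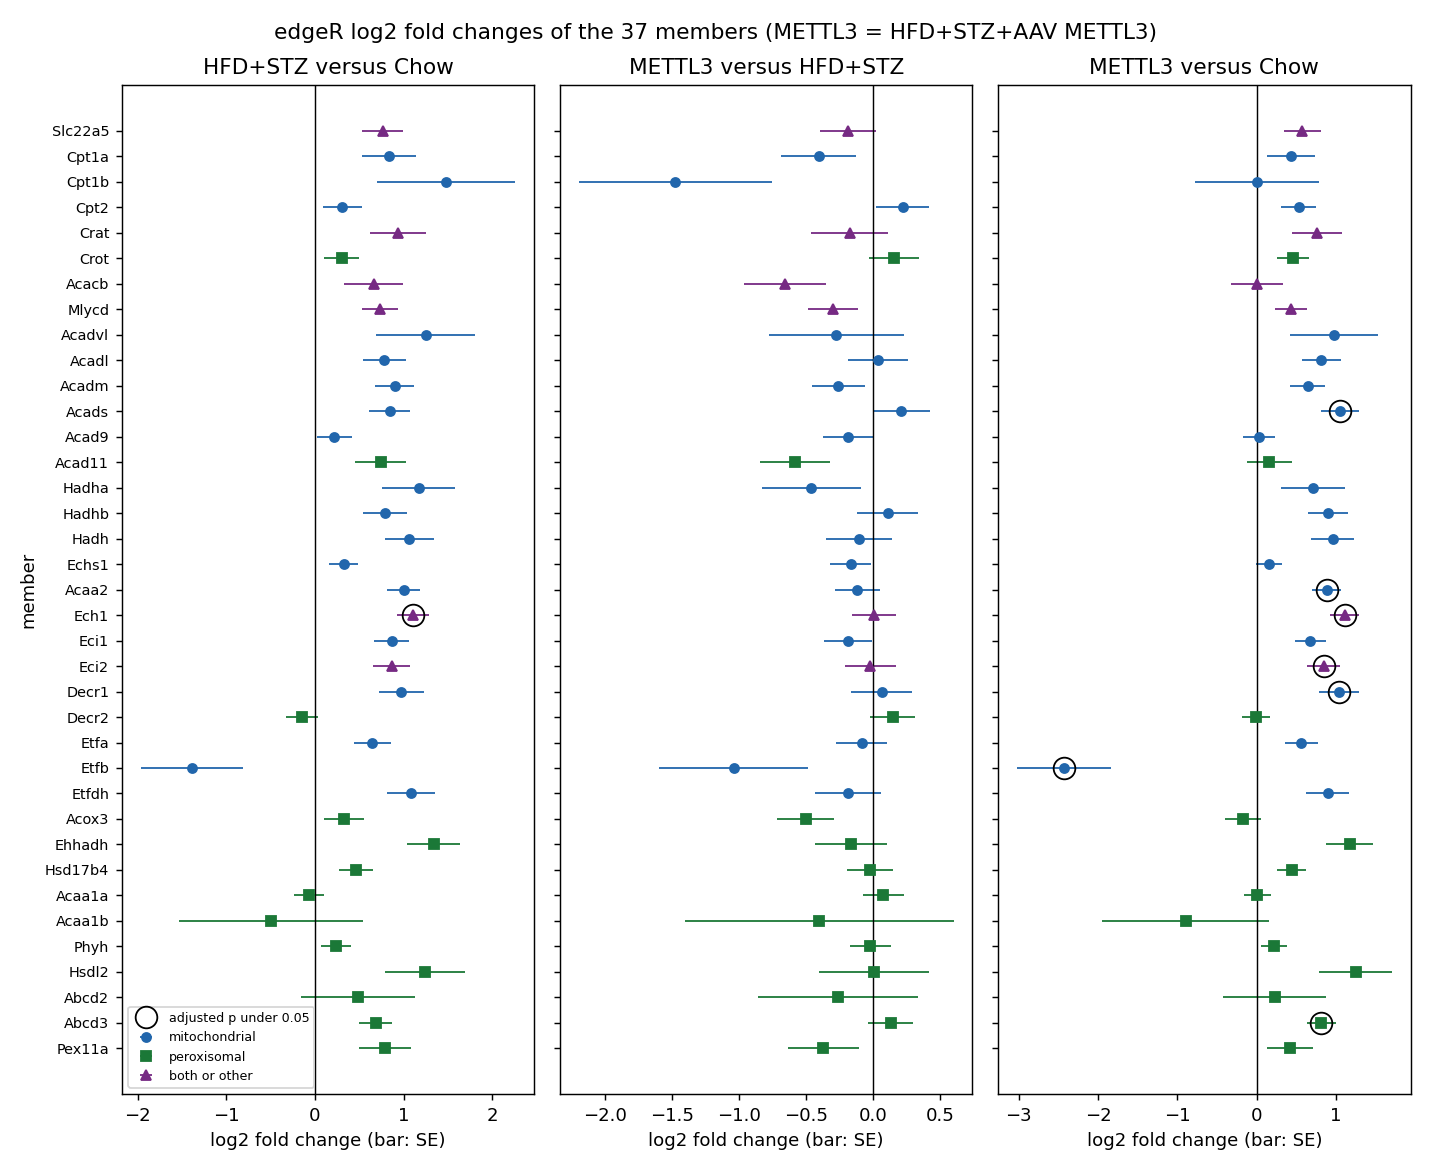
edgeR log2 fold changes with standard errors for the 37 members in the 3 comparisons, HFD+STZ versus Chow, METTL3 versus HFD+STZ and METTL3 versus Chow, each panel with its own axis. Blue circles are mitochondrial, green squares peroxisomal and purple triangles other members, and black rings mark an adjusted p under 0.05. In the left panel 33 of 37 points lie right of 0.

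Carnitine entry came first in the order of the pathway. Slc22a5, the plasma membrane carnitine transporter, had 29.1, 25.8, 33.4 and 34.3 CPM in METTL3 hearts, 24.9, 45.1, 38.1 and 31.6 CPM in HFD+STZ hearts and 23.5, 23.3 and 14.8 CPM in Chow hearts. Cpt1a, the liver type of carnitine palmitoyltransferase 1, had 66.3, 38.4, 69.5 and 61.0 CPM in METTL3 hearts, 68.7, 69.6, 88.1 and 85.4 CPM in HFD+STZ hearts and 53.1, 56.5 and 21.2 CPM in Chow hearts. Log2 fold changes are given ± their standard error. In both genes every HFD+STZ library lay above every Chow library. The HFD+STZ versus Chow log2 fold change was 0.76 ± 0.23 for Slc22a5 and 0.84 ± 0.31 for Cpt1a, with edgeR adjusted p of 0.243 and 0.330. Without Chow replicate 3 the Cpt1a value was 0.51. Crat, which makes acetylcarnitine, had 791, 494, 673 and 624 CPM in METTL3 hearts, 500, 790, 802 and 826 CPM in HFD+STZ hearts and 496, 462 and 187 CPM in Chow hearts. HFD+STZ replicate 1 and Chow replicate 3 were each well below their groups in Crat, whose log2 fold change was 0.93 ± 0.32, and 0.61 without Chow replicate 3. Cpt2, which returns the acyl group to CoA inside mitochondria, had 399, 358, 375 and 377 CPM in METTL3 hearts, 245, 376, 362 and 314 CPM in HFD+STZ hearts and 211, 223 and 351 CPM in Chow hearts. Chow replicate 3 was the highest Chow library in Cpt2, and the HFD+STZ and Chow groups overlapped. Cpt2 and the peroxisomal Crot, which loads medium chains onto carnitine, had log2 fold changes of 0.31 ± 0.22 and 0.30 ± 0.20, and of 0.58 and 0.17 without Chow replicate 3.

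Cpt1b, the main carnitine palmitoyltransferase 1 of muscle, was listed at 0.783, 0.919, 1.28 and 1.08 CPM in METTL3 hearts, 2.18, 3.65, 2.79 and 2.74 CPM in HFD+STZ hearts and 1.19, 1.83 and 0 CPM in Chow hearts. Its HFD+STZ versus Chow log2 fold change, 1.48 ± 0.78, was the highest of the members, did not pass the test, and was 0.91 without Chow replicate 3. It lies on chromosome 15 within the protein-coding gene Gm44502 (89416405 to 89429696, mm10, same strand), which has 0 counts in every library. Etfb, a subunit of electron transfer flavoprotein, overlaps Gm45233 on chromosome 7 over most of its length (43444128 to 43463587, same strand), which is also at 0 in every library. How reads shared by such genes were assigned is not given, so the levels of Cpt1b and Etfb are uncertain, and the part of the overlap in them was not tested. Acad11 partly overlaps Gm28305 on the same strand, which has 0 counts. Acaa1a, Acaa1b, Acad11, Acadvl, Crat, Echs1, Etfdh and Hadha overlap a protein-coding gene on the opposite strand, and the strand setting is not given.

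A pair of enzymes sets malonyl-CoA, the inhibitor of carnitine palmitoyltransferase 1. Acacb, which makes malonyl-CoA at the mitochondrial surface, had 313, 187, 302 and 177 CPM in METTL3 hearts, 190, 428, 470 and 455 CPM in HFD+STZ hearts and 314, 251 and 167 CPM in Chow hearts. Its log2 fold change in HFD+STZ versus Chow was 0.66 ± 0.34, and -0.09 with the range of sample codes as a covariate. Mlycd, which breaks malonyl-CoA down, had 160, 105, 127 and 123 CPM in METTL3 hearts, 113, 176, 163 and 183 CPM in HFD+STZ hearts and 93.5, 102 and 90.3 CPM in Chow hearts. Every HFD+STZ library lay above every Chow library in Mlycd, with a log2 fold change of 0.74 ± 0.20 and an adjusted p of 0.202.

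The acyl-CoA dehydrogenases that open beta-oxidation divide the work by chain length. Among 14 members grouped here by the chain length they handle, mostly mitochondrial, the HFD+STZ versus Chow median log2 fold change was 0.84 for 7 long-chain, 0.90 for 3 medium-chain and 0.89 for 4 short-chain genes, and the differences between these medians were not tested. Acadm, the medium-chain enzyme, had 1425, 1029, 1148 and 1221 CPM in METTL3 hearts, 960, 1730, 1571 and 1512 CPM in HFD+STZ hearts and 826, 752 and 741 CPM in Chow hearts. Its groups did not overlap, with a log2 fold change of 0.90 ± 0.22 and an adjusted p of 0.136. Acads, the short-chain enzyme, had 259, 302, 288 and 302 CPM in METTL3 hearts, 175, 294, 253 and 274 CPM in HFD+STZ hearts and 157, 166 and 93.5 CPM in Chow hearts. All 4 HFD+STZ libraries exceeded the Chow libraries, with a log2 fold change of 0.84 ± 0.23. Acadl, a long-chain enzyme, had 1939, 1290, 1743 and 1453 CPM in METTL3 hearts, 1115, 1668, 1995 and 1499 CPM in HFD+STZ hearts and 794, 789 and 1153 CPM in Chow hearts, with a log2 fold change of 0.78 ± 0.25. Acadvl, the very-long-chain enzyme of the inner membrane, had 442, 308, 500 and 288 CPM in METTL3 hearts, 262, 551, 532 and 520 CPM in HFD+STZ hearts and 297, 262 and 29.7 CPM in Chow hearts. Chow replicate 3 was far below its group, and the log2 fold change was 1.25 ± 0.56, 0.74 without that library, and 0.94 without it and HFD+STZ replicate 1. Acad9, known mainly for assembling complex I, had 28.5 ± 3.51 CPM in METTL3 hearts (SD, n = 4), 32.5 ± 3.92 CPM in HFD+STZ hearts (n = 4) and 27.9 ± 7.44 CPM in Chow hearts (n = 3).

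**Figure D2:**
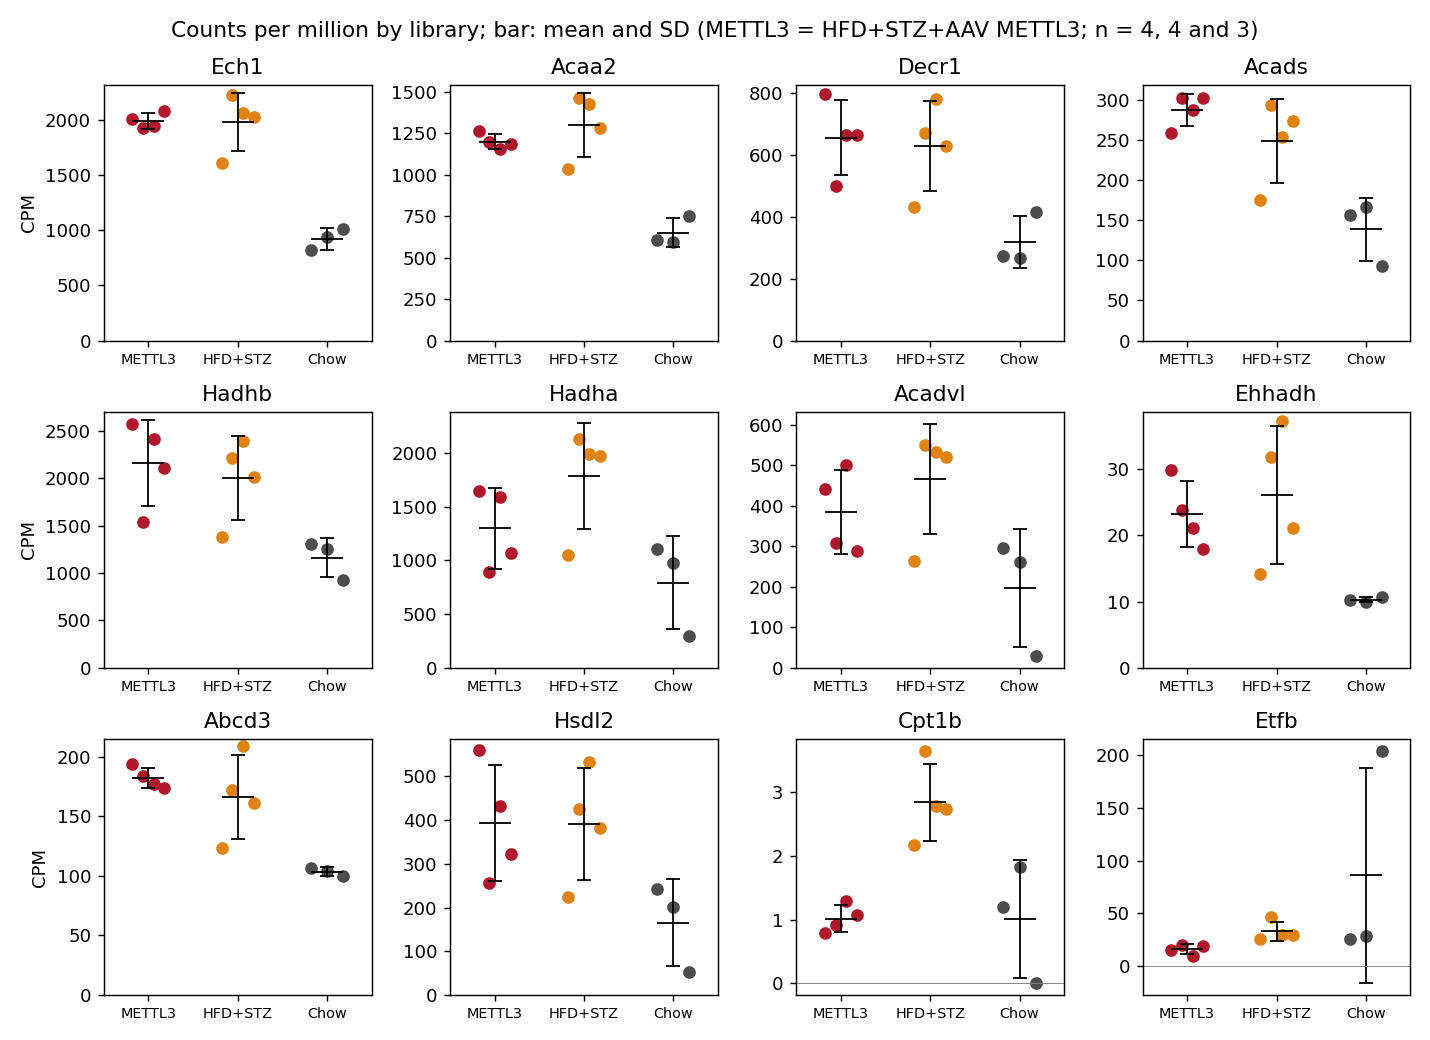
CPM of 12 members in the METTL3, HFD+STZ and Chow libraries (points), with the mean and SD of each group (bars; n = 4, 4 and 3) and each panel on its own axis. The Chow libraries lie lowest for Ech1, Acaa2, Decr1, Acads, Hadhb, Ehhadh and Abcd3. Chow replicate 3 stands apart at 29.7 CPM for Acadvl and 204 CPM for Etfb.

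The later steps of mitochondrial beta-oxidation came next. The 5 genes of hydration, dehydrogenation and thiolysis had a median log2 fold change of 1.00 in HFD+STZ versus Chow. Acaa2, the mitochondrial thiolase, had 1262, 1195, 1154 and 1183 CPM in METTL3 hearts, 1033, 1461, 1427 and 1281 CPM in HFD+STZ hearts and 605, 595 and 750 CPM in Chow hearts. Each HFD+STZ library lay above each Chow library, with a log2 fold change of 1.00 ± 0.19, and an adjusted p of 0.05001 just above the threshold. Hadha, the alpha subunit of the trifunctional protein, had 1643, 894, 1588 and 1064 CPM in METTL3 hearts, 1050, 2126, 1992 and 1970 CPM in HFD+STZ hearts and 1101, 979 and 296 CPM in Chow hearts. Hadhb, its beta subunit, had 2570, 1539, 2419 and 2114 CPM in METTL3 hearts, 1383, 2216, 2394 and 2016 CPM in HFD+STZ hearts and 1306, 1251 and 926 CPM in Chow hearts. The log2 fold changes were 1.17 ± 0.41 and 0.79 ± 0.25, and Chow replicate 3 was lower relative to its group in Hadha than in Hadhb. Hadh, the short-chain hydroxyacyl-CoA dehydrogenase, had 793, 653, 814 and 743 CPM in METTL3 hearts, 518, 833, 1059 and 825 CPM in HFD+STZ hearts and 440, 476 and 244 CPM in Chow hearts. Its groups did not overlap, with a log2 fold change of 1.06 ± 0.27 and an adjusted p of 0.166. Echs1, the short-chain hydratase, had 304, 314, 276 and 288 CPM in METTL3 hearts, 275, 388, 352 and 311 CPM in HFD+STZ hearts and 263, 276 and 255 CPM in Chow hearts, which overlap between HFD+STZ and Chow, with a log2 fold change of 0.32 ± 0.17.

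Auxiliary enzymes for unsaturated chains gave the one call. Ech1, an isomerase of dienoyl-CoA in mitochondria and peroxisomes, had 2003, 1920, 1943 and 2076 CPM in METTL3 hearts, 1609, 2226, 2056 and 2027 CPM in HFD+STZ hearts and 815, 935 and 1014 CPM in Chow hearts. The METTL3 and HFD+STZ levels were above all Chow levels. The HFD+STZ versus Chow log2 fold change was 1.10 ± 0.18, a fold of 2.15, with an adjusted p of 0.0372. That call held without HFD+STZ replicate 1 or Chow replicate 3 and was lost without any of the other 9 libraries, at adjusted p of 0.0670 to 0.138, in fits that called 0.00654% to 0.0813% of all genes higher. Its log2 fold change was 1.04 to 1.19 when single libraries were left out. Per kilobase of its longest annotated coding transcript, Ech1 was also the highest member, at 1567, 1562 and 727 CPM per kilobase in METTL3, HFD+STZ and Chow hearts. Decr1, the mitochondrial dienoyl-CoA reductase, had 797, 498, 662 and 663 CPM in METTL3 hearts, 432, 671, 778 and 627 CPM in HFD+STZ hearts and 274, 267 and 416 CPM in Chow hearts. Eci1, a mitochondrial isomerase of enoyl-CoA, had 404, 377, 382 and 378 CPM in METTL3 hearts, 329, 517, 498 and 413 CPM in HFD+STZ hearts and 196, 252 and 274 CPM in Chow hearts. Eci2, an isomerase found in mitochondria and peroxisomes, had 214, 147, 177 and 192 CPM in METTL3 hearts, 135, 204, 225 and 177 CPM in HFD+STZ hearts and 90.8, 95.9 and 118 CPM in Chow hearts. Eci1 and Eci2 had log2 fold changes of 0.87 ± 0.20 and 0.87 ± 0.21, and Decr1 one of 0.97 ± 0.25. In all 3 genes the groups did not overlap and the adjusted p lay between 0.127 and 0.166. Decr2, the peroxisomal counterpart of Decr1, had a log2 fold change of -0.15 ± 0.18 and overlapping groups.

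Electron transfer completes the mitochondrial set. Etfdh, which passes electrons to ubiquinone, had 936, 476, 710 and 618 CPM in METTL3 hearts, 528, 884, 934 and 770 CPM in HFD+STZ hearts and 434, 389 and 282 CPM in Chow hearts. Etfa, the alpha subunit of electron transfer flavoprotein, had 685, 462, 554 and 547 CPM in METTL3 hearts, 447, 710, 687 and 541 CPM in HFD+STZ hearts and 397, 396 and 350 CPM in Chow hearts. Both had groups that did not overlap, with log2 fold changes of 1.08 ± 0.27 and 0.65 ± 0.21 and adjusted p of 0.153 and 0.278. Etfb had 15.2, 19.7, 9.82 and 19.2 CPM in METTL3 hearts, 25.6, 46.2, 29.9 and 29.7 CPM in HFD+STZ hearts and 25.8, 28.1 and 204 CPM in Chow hearts. Chow replicate 3 was the only high library, and the log2 fold change was -1.39 ± 0.58, but 0.29 without that library.

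In peroxisomes the members were uneven. Ehhadh, the bifunctional hydratase and dehydrogenase, had 29.9, 23.9, 21.1 and 18.01 CPM in METTL3 hearts, 14.1, 31.8, 37.3 and 21.2 CPM in HFD+STZ hearts and 10.3, 9.89 and 10.7 CPM in Chow hearts. The Chow libraries lay close together and below every HFD+STZ library, with a log2 fold change of 1.34 ± 0.30 and an adjusted p of 0.110. Hsdl2, a hydroxysteroid dehydrogenase-like protein of peroxisomes, had 560, 257, 432 and 323 CPM in METTL3 hearts, 225, 426, 532 and 382 CPM in HFD+STZ hearts and 242, 202 and 52.6 CPM in Chow hearts. Its log2 fold change was 1.24 ± 0.46, with Chow replicate 3 far below the other Chow libraries, and 0.82 without that library. Abcd3, a transporter of branched-chain acyl-CoA, had 194, 184, 177 and 174 CPM in METTL3 hearts, 123, 172, 209 and 161 CPM in HFD+STZ hearts and 107, 104 and 99.5 CPM in Chow hearts, and Pex11a, which drives peroxisome division, had 29.5, 16.2, 30.1 and 22.8 CPM in METTL3 hearts, 17.1, 38.2, 38.0 and 34.3 CPM in HFD+STZ hearts and 16.4, 16.7 and 22.1 CPM in Chow hearts. Log2 fold changes were 0.69 ± 0.18 for Abcd3 and 0.79 ± 0.29 for Pex11a. Hsd17b4, the second bifunctional enzyme, had a log2 fold change of 0.46 ± 0.19, Acox3, an oxidase of branched chains, 0.33 ± 0.23 (0.10 without Chow replicate 3), and Phyh, which starts phytanic acid breakdown, 0.24 ± 0.17. Phyh had 599, 510, 470 and 531 CPM in METTL3 hearts, 475, 599, 579 and 490 CPM in HFD+STZ hearts and 446, 472 and 444 CPM in Chow hearts. Acad11, an acyl-CoA dehydrogenase placed here with peroxisomes, had 93.1, 172, 185 and 181 CPM in HFD+STZ hearts and 114, 99.1 and 70.0 CPM in Chow hearts, with a log2 fold change of 0.74 ± 0.29. The thiolases Acaa1a (-0.07 ± 0.17) and Acaa1b (-0.49 ± 1.04) are near-identical copies whose reads may be shared, Acaa1b had under 5 CPM throughout, and Abcd2 (0.49 ± 0.64) had under 12 CPM. Without Chow replicate 3, Acaa1b was at 1.36 and Abcd2 at -0.06 on the same scale.

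**Figure D3:**
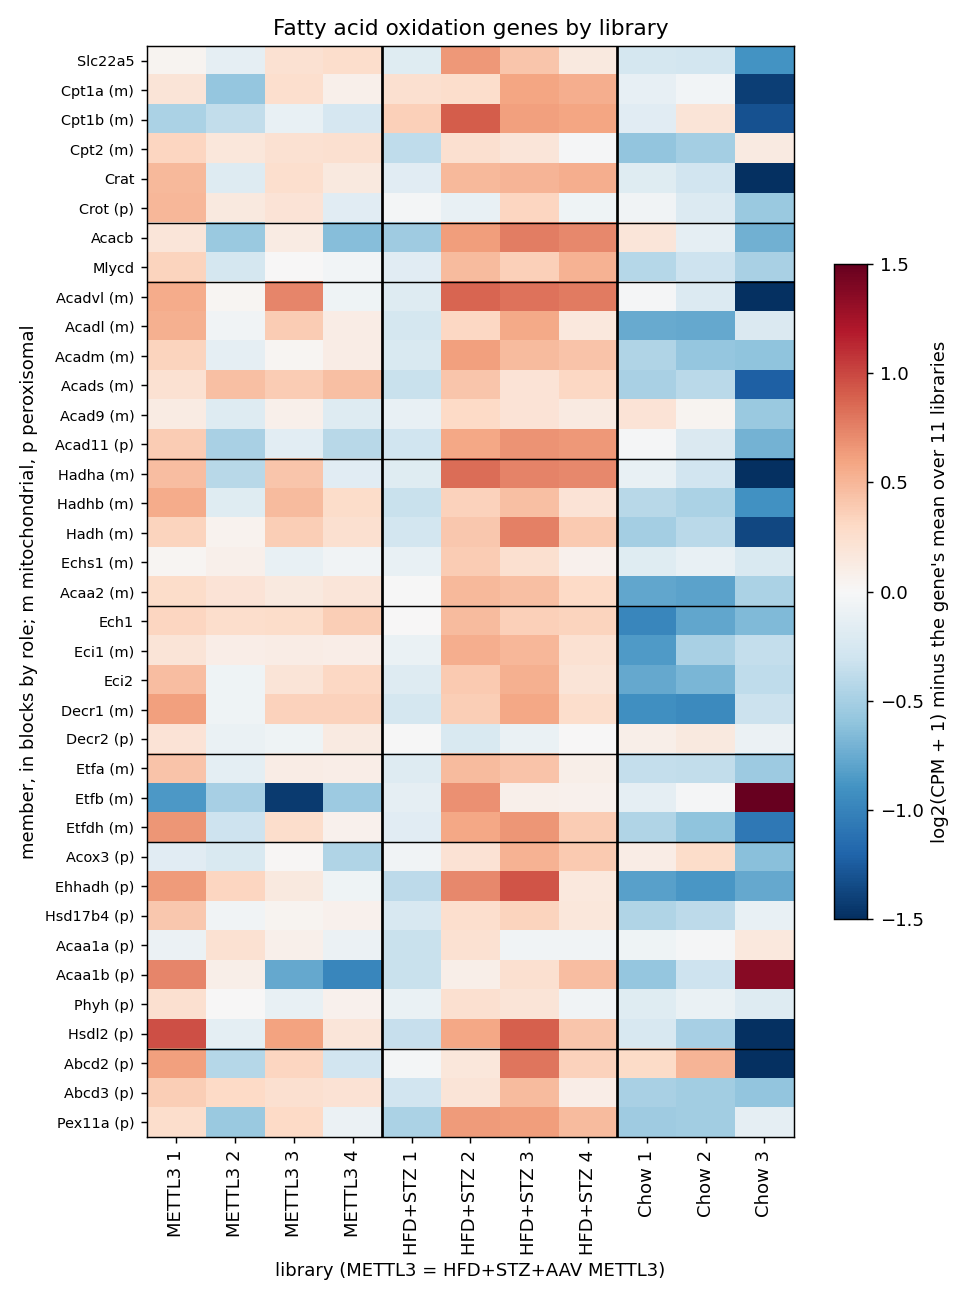
Log2(CPM + 1) of the 37 members minus each gene's mean over the 11 libraries (colour, cut at 1.5 either way), with members in rows blocked by role and libraries in columns, METTL3, HFD+STZ and Chow from left to right. HFD+STZ replicates 2 to 4 are above all Chow libraries in 28 members, and HFD+STZ replicate 1 is the lowest HFD+STZ library in 35.

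No member differed between METTL3 and HFD+STZ hearts past the threshold. The median log2 fold change was -0.17 over the 37 members, -0.18 over mitochondrial and -0.02 over peroxisomal members, against -0.00 over all genes. The edgeR test called 0 members and 0% of all genes, and 2 members, both below 0, had an unadjusted p under 0.05, against 9.06% of all genes. Those 2 were Acad11 and Acox3. Acad11 had 151, 81.6, 103 and 85.8 CPM in METTL3 hearts and 93.1, 172, 185 and 181 CPM in HFD+STZ hearts, which overlap through HFD+STZ replicate 1. Acox3 had 21.5, 20.6, 24.7 and 17.5 CPM in METTL3 hearts and 23.5, 28.4, 35.5 and 32.3 CPM in HFD+STZ hearts, which overlap through the same library. Their log2 fold changes were -0.58 ± 0.26 and -0.50 ± 0.21. Members ranged from -1.47 ± 0.72 for Cpt1b to 0.22 ± 0.20 for Cpt2. Cpt1b and Etfb were lower in METTL3 hearts without overlap, and 0 members higher, against 4.14% and 5.43% of all genes, with Etfb at -1.04 ± 0.55. Acacb had a log2 fold change of -0.66 ± 0.31.

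The 95% interval of the METTL3 versus HFD+STZ log2 fold change was -0.35 to 0.36 for Ech1, -0.48 to 0.25 for Acaa2, -0.25 to 0.67 for Acads and -1.36 to 0.81 for Acadvl. These intervals lie around each estimate, 1 gene at a time, without adjustment over genes. They are not limits of detection. Chow replicate 3 and HFD+STZ replicate 1 were also left out together, a choice made after seeing the data. HFD+STZ replicate 1 was the lowest HFD+STZ library in 35 of the 37 members, so leaving it out raises their HFD+STZ mean. In that fit Acacb (-0.89), Acad11 (-0.78), Etfb (-1.15), Acox3 (-0.61) and Cpt1b (-1.59) fell in METTL3 hearts by adjusted p, where 1.35% of all genes were called lower. These 5 falls are therefore not independent of the choice. With offsets for GC content and length added to that fit, 0 members and 0% of all genes were called. The 5 calls were lost, while their log2 fold changes were -0.64 for Acacb, -1.004 for Acad11, -0.90 for Etfb, -0.45 for Acox3 and -1.40 for Cpt1b. In the libraries with codes 25 to 33 alone the median log2 fold change was -0.24 over the members, against 0.002 over all genes. That fit called 0 members and 0% of all genes, so its count of 0 says nothing about the members. In the upper range METTL3 replicate 4 lay a median of 0.23 above HFD+STZ replicate 1, with no test, against 0.005 over all genes.

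METTL3 hearts against Chow hearts gave 7 calls, in a comparison that shares the Chow libraries with HFD+STZ versus Chow. By edgeR adjusted p, 6 members rose and 1 fell, where 1.82% and 1.37% of all genes were called higher and lower. On the log2 scale Ech1 rose by 1.11 ± 0.18, with an adjusted p of 0.0160. Acads rose by 1.05 ± 0.24, Decr1 by 1.04 ± 0.25, Acaa2 by 0.88 ± 0.19, Eci2 by 0.84 ± 0.21 and the peroxisomal transporter Abcd3 by 0.82 ± 0.18, with adjusted p of 0.0316 to 0.0487 among these 5. Etfb fell, with a log2 fold change of -2.43 ± 0.60 and an adjusted p of 0.0476, but its call was lost without any library other than Chow replicate 1. The fits that lost it called 0.088% to 2.09% of all genes lower. Without Chow replicate 3 the Etfb log2 fold change was -0.77. The Ech1 call was lost without METTL3 replicate 4 or Chow replicate 2, at adjusted p of 0.0582 and 0.0647. Those fits called 0.169% and 0.124% of all genes higher. The other 5 higher calls were each lost on leaving out 6 to 9 of the 11 libraries in turn, at adjusted p up to 0.123. The fits in which they were lost called 0.124% to 1.68% of all genes higher. Ehhadh, at 1.17 ± 0.30, had an adjusted p of 0.0527. The median log2 fold change was 0.56 over all members, 0.69 over mitochondrial and 0.23 over peroxisomal members, against -0.01 over all genes. Without Chow replicate 3 and HFD+STZ replicate 1, a choice made after seeing the data, 14 members rose, where 4.83% of all genes did. With the code range as a covariate 0 members were called, in a fit that called 0.00673% of all genes. Within the upper range METTL3 replicate 4 lay a median log2 difference of 0.64 above the Chow mean over the members, with no test. Groups of 20 members did not overlap in the higher direction and of 1 in the lower, against 10.5% and 8.26% of all genes, and 22 members, 21 of them above 0, had an unadjusted p under 0.05, against 21.7% of all genes.

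**Figure D4:**
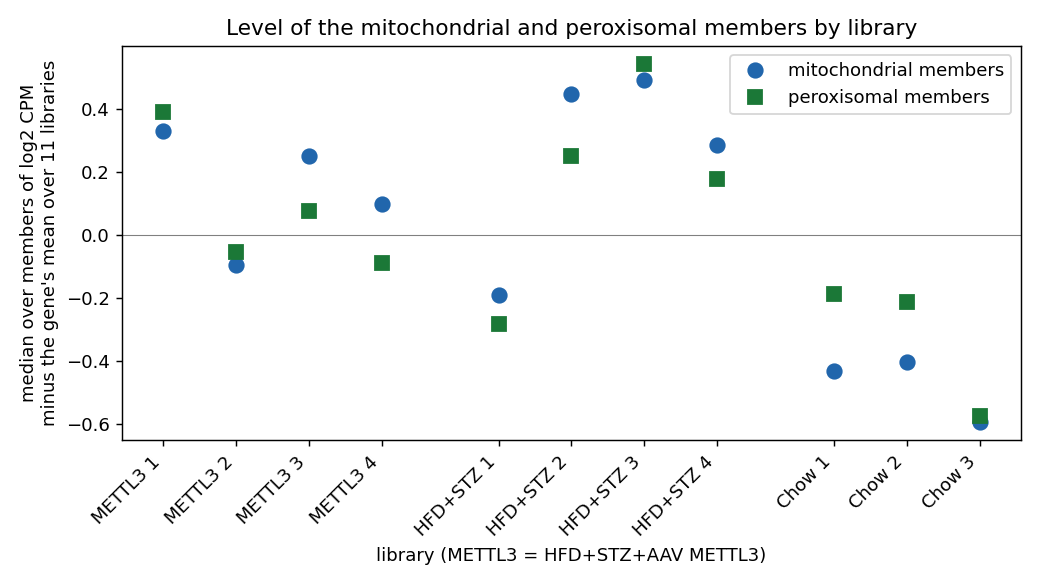
Median over members of log2 CPM minus each gene's mean over 11 libraries, for the 18 mitochondrial (blue circles) and 13 peroxisomal (green squares) members, by library from METTL3 to Chow. Mitochondrial medians run from -0.10 to 0.33 in METTL3, -0.19 to 0.49 in HFD+STZ and -0.59 to -0.40 in Chow libraries.

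Every HFD+STZ library had a higher mitochondrial median than every Chow library, while the peroxisomal medians overlapped, with HFD+STZ replicate 1 (-0.28) below Chow replicates 1 and 2 (-0.19 and -0.21). Among METTL3 libraries the mitochondrial median, centred on each gene's mean, lay between -0.10 and 0.33 and the peroxisomal between -0.09 and 0.39. In HFD+STZ libraries they lay between -0.19 and 0.49 and between -0.28 and 0.54. In Chow libraries they lay between -0.59 and -0.40 and between -0.57 and -0.19. HFD+STZ replicate 1 was the lowest HFD+STZ library in both compartments, and the difference between compartments was not tested.

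Other genes of the pathway form a list of 53 that overlaps none of the 37, and the lists were not compared by a test. Of 50 tested, Slc25a20, the mitochondrial carnitine and acylcarnitine carrier, rose in HFD+STZ against Chow, and 0 fell. Of all genes 0.135% rose and 0.0336% fell. The median log2 fold change of the list was 0.20. Slc25a20 had 266 ± 29.8 CPM in METTL3 hearts (SD, n = 4), 295 ± 63.3 CPM in HFD+STZ hearts (n = 4) and 118 ± 12.8 CPM in Chow hearts (n = 3), with a log2 fold change of 1.32 and an edgeR adjusted p of 0.0309 in HFD+STZ versus Chow. In METTL3 versus Chow, Slc25a20 and Cd36, the fatty acid uptake receptor, rose, and 0 fell, with a median of 0.15. Of all genes 1.82% rose and 1.37% fell there. In METTL3 versus HFD+STZ 0 of 50 were called, where 0% of all genes were, and the median was -0.15.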

How the data were processed

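The submitters deposited a table of unnormalized whole-number counts for each gene. Per the labels' protocols, frozen hearts went through Trizol extraction, ribosomal RNA depletion and a NEB library kit. FastQC, Salmon and mm10 are named, unversioned, in the submitters' processing notes; the sources used here give no annotation release, strand setting or handling of shared reads.

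The edgeR package (4.0.16, R 4.3.3) fitted all 11 libraries in a single model after TMM scaling and filterByExpr (minimum count 10, minimum total 15). Its quasi-likelihood p-values were adjusted by Benjamini-Hochberg over 14862 genes, with a threshold of 0.05. CPM were scaled by TMM, and log2 CPM had a prior count of 2 added. Of the members, 33 have the coordinates of GENCODE M21. Every member is named; those past the threshold or with the largest changes in HFD+STZ versus Chow are given library by library, as are some others. The members and lists were chosen with earlier results of these data known. Replicates are not said to be separate animals, so the p-values describe the spread of these libraries only, which could be technical. Intervals cover counting error and modelled spread. The procedure was tested on simulated counts. Alternatives were DESeq2 1.42.0, its size factors, scaling on nuclear genes, no filter, fits of the compared groups only, a replicate block, the code range, codes 25 to 33 alone, loess offsets (span 0.5) on GC content and length, and leaving out each library. Leaving out Chow replicate 3 with HFD+STZ replicate 1, without and with the offsets, was chosen after seeing the data.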

Additional observations from a re-analysis of the deposited data

Results flagged for a closer look

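Dixon's ratio was computed for each member in the METTL3 and the HFD+STZ group, 74 groups of 4 libraries in all, on log2 CPM. A library lying far from the others was found in 6, each time HFD+STZ replicate 1, and chance flags about 1 in 20 such groups. In that library Crat was at 500.2 CPM, where the other HFD+STZ libraries had 790 to 826 CPM. Acacb was at 190 CPM, against 428 to 470 CPM in the others. Acadvl was at 262 CPM, against 520 to 551 CPM, and Hadha at 1050 CPM, against 1970 to 2126 CPM. Acad11 was at 93.1 CPM, against 172 to 185 CPM, and Pex11a at 17.1 CPM, against 34.3 to 38.2 CPM. The part of this library in these values was not tested beyond leaving it out.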

How the results depend on the processing

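Counts of called members depended on the setting, as did the share of all genes called in the same direction, given beside each. In HFD+STZ versus Chow the members called higher were 13 with DESeq2 (1.6% of all genes), 3 without a filter (0.496%), 3 with GC and length offsets (0.316%), 20 without Chow replicate 3 and HFD+STZ replicate 1 (2.21%), 24 with those left out and the offsets (3.48%), and 0 with only the groups compared (0%), with the replicate block (0.00673%) and with the code range (0.00673%). In METTL3 versus Chow they were 14 with DESeq2 (5.4%), 14 and 15 without those libraries, without and with offsets (4.83% and 4.74%), and 0 with only the groups compared (0.267%), the replicate block (0.0135%) and the code range (0.00673%). The members called lower in METTL3 versus Chow were 0 in each of these and with offsets alone. Of all genes, DESeq2 called 4.75% lower there, the fits without those libraries 3.54% and 1.63%, and offsets alone 0.505%. The share was 0.113% with only the groups compared, 0.0202% with the replicate block and 0% with the code range. In METTL3 versus HFD+STZ 5 members were called lower without those libraries (1.35%), and the peroxisomal median was -0.34 when offsets were added. Leaving out each library gave 0 to 11 higher calls in HFD+STZ versus Chow. The 11 came without HFD+STZ replicate 1 (1.09% of all genes), and the fits with 0 called 0.00654% to 0.0813% of all genes higher. In METTL3 versus Chow it gave 0 to 9 higher and 0 to 1 lower. The 9 came without Chow replicate 3 (2.84%), the fits with 0 higher called 0.124% and 0.169%, and the 1 lower came without Chow replicate 1 (2.85%). With the code range the medians were 0.46 over all members and 0.16 over peroxisomal ones in HFD+STZ versus Chow, and 0.35 over all and 0.39 over mitochondrial members in METTL3 versus Chow.

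Signs turned for some members, and the cause was not tested. The sign turned in METTL3 versus HFD+STZ in 15 of 22 settings for Hsdl2 and 11 of 22 for Ech1, both near 0, and in METTL3 versus Chow in 7 of 21 for Cpt1b. In HFD+STZ versus Chow it turned for Etfb (-1.39), Acaa1b (-0.49), Abcd2 (0.49) and Acacb (0.66), whose changes were not near 0. In METTL3 versus HFD+STZ, Ech1 was -0.013 with DESeq2 and -0.013 with its size factors, -0.030 without a filter, -0.000665 with only the groups compared, -0.11 in codes 25 to 33 alone and -0.092 without both libraries. Hsdl2 was -0.013, -0.013 and -0.026 in the first 3 of these, -0.055 with the replicate block, -0.11 in codes 25 to 33, -0.15 with offsets, -0.19 without both libraries and -0.36 with offsets as well. Decr1 was -0.093 in codes 25 to 33, -0.057 with offsets, -0.088 without both libraries and -0.22 with offsets as well, and Abcd3 -0.11 in that last setting. Acaa2 was 0.044 and Crat 0.0095 with offsets. In HFD+STZ versus Chow, Acaa1b was 0.0013 with the replicate block, 1.59 without both libraries and 1.65 with offsets as well; Etfb was 0.39 and 0.36 and Acaa1a 0.091 and 0.16 in the last pair of settings, and Acacb -0.092 with the code range. In METTL3 versus Chow, Cpt1b was -0.021 without a filter, -0.14 with the code range, -0.58 without both libraries and -0.31 with offsets as well. Leaving out single libraries gave ranges across 0 of -1.79 to 0.29 for Etfb, -0.17 to 0.019 for Acaa1a, -0.96 to 1.36 for Acaa1b and -0.056 to 1.01 for Abcd2 in HFD+STZ versus Chow. In METTL3 versus HFD+STZ they were -0.090 to 0.066 for Ech1, -0.15 to 0.083 for Eci2, -0.086 to 0.18 for Decr1, -0.38 to 0.056 for Ehhadh, -0.21 to 0.19 for Hsdl2 and -0.28 to 0.049 for Hadh, and in METTL3 versus Chow -0.58 to 0.75 for Cpt1b. Same-numbered replicates showed correlations of -0.23 to 0.16, which were not set against differently numbered ones and so cannot decide on pairing. No label says that the numbers pair samples, and the fit with the replicate block is given only as a check.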
